A study of Saccharomyces cerevisiae with 24 samples.

Results

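The genes described here are those of chromosome XIII of the budding yeast Saccharomyces cerevisiae. They were taken as every row of the deposited tables whose systematic name begins YML (left arm) or YMR (right arm), without the α-tubulin genes TUB1 and TUB3, and with a mean of at least 10 normalised counts over the libraries of a table. That gave 455 of 5808 genes in the haploid table, 127 on the left and 328 on the right arm. The diploid table gave 451 of 5727 genes, 124 and 327 by arm, and all 451 are also in the haploid table. Of 458 haploid rows with such names, YML100W-A lay under the minimum at 8.87, while the lowest genes kept were YML133C at 10.5 and YMR175W-A at 12.1. The chromosome was chosen because its level had already been seen to be raised in some libraries of the strains N2, Ca and N2/Ca. Its level there is given as a description, with no test.

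The study measured poly(A) RNA of 8 yeast strains that express different actins, with 3 libraries each, from log-phase cultures in rich glucose medium (YPD) at 25 °C. The haploid strains are N2, Ca, Sc[At], Sc[Sp], Sc[Ca] and the wild type ScNI, and the diploid strains are the wild type Sc/Sc and N2/Ca. Strain names are used as labels, since nothing further is given on their genotypes, on the number of clones behind a strain or on whether replicates were separate cultures. The p-values below therefore measure the spread between these libraries. The 3 diploid columns used as N2/Ca carry the heading N19_Ca, and were read as N2/Ca because the labels name 2 diploid strains and Ca is part of only that name. Depth was 10211417 to 15402689 reads per haploid and 12127977 to 15110476 per diploid library. ACT1, the native actin gene, stood at 18498 ± 87.3 normalised counts in ScNI (SD, n = 3), and at 145.9 ± 36.2, 20.9 ± 11.1 and 55.9 ± 21.1 in Sc[Ca], Sc[Sp] and Sc[At]. It was at 13450 ± 2614 in N2 and 12798 ± 3629 in Ca. The N2 libraries (10443 to 15183) and Ca libraries (8638 to 15314) all lay below those of ScNI (18397 to 18550). ACT1 overlapped between N2 and Ca, and the rows of the introduced actins tell N2 and Ca apart. The N2 row was at 20971 ± 4087 in N2 and 311 ± 81.1 in Ca, and the Ca row at 14462 ± 4149 in Ca and 14.2 ± 2.75 in N2. The columns read as N2/Ca held both rows, at 7071 ± 2708 and 11168 ± 820.2, against 302 ± 60.8 and 23.4 ± 3.86 in Sc/Sc. Replicate 2 of each haploid strain had the mating-type transcripts of MATalpha cells and the other replicates those of MATa cells, so mating type goes with the replicate number and not with the strain. Replicate 2 of a haploid strain was thus not the same culture as replicates 1 and 3. Between those 2, and among diploid replicates, the spread may in part be technical. Such replicates of N2, Ca and N2/Ca also differed in the level of chromosome XIII as a whole. Its median log2 over ScNI was 0.51 and 0.92 in N2 replicates 1 and 3, and 0.86 and −0.01 in Ca replicates 1 and 3.

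A yeast cell that gains a chromosome carries an added copy of every gene on it, a state called aneuploidy. Most budding yeast genes have no dosage compensation, so their mRNA usually follows the copy number, while some genes are held back or pushed further by their own regulation. A second copy in place of 1 gives a log2 ratio of 1, and a copy added to 2 gives 0.585. DNA was not measured in this study, so copy number itself was not tested.

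Upstream sequences are printed for 4 genes of the right and left arm whose levels the results below turn on. They are the ribosome biogenesis genes HAS1 and UTP14, the stress gene TSL1 and the iron uptake gene FET3. Each runs from 300 to 81 bases upstream of the start codon on the coding strand, from the R64 genome (HAS1 at chrXIII:851672-851891, minus strand; UTP14 at chrXIII:82790-83009, TSL1 at chrXIII:70324-70543 and FET3 at chrXIII:388522-388741, plus strand). Capitals mark GATGAG (the PAC element of ribosome biogenesis genes) in HAS1 and UTP14, AGGGG (the stress response element bound by Msn2 and Msn4) in TSL1, and TGCACCC (the core of Aft1 sites) in FET3.
HAS1: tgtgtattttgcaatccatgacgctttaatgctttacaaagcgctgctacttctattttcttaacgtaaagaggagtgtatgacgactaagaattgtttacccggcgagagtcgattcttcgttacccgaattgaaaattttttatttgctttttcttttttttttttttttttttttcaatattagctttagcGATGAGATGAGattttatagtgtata
UTP14: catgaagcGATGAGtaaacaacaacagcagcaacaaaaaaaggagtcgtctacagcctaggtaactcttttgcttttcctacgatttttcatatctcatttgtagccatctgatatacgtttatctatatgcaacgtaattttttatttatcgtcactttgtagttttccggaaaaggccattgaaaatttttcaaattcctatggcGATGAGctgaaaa
TSL1: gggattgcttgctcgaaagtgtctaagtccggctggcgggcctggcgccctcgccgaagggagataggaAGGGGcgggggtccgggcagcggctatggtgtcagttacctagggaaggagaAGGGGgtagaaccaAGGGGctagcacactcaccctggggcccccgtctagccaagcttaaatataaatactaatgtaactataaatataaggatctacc
FET3: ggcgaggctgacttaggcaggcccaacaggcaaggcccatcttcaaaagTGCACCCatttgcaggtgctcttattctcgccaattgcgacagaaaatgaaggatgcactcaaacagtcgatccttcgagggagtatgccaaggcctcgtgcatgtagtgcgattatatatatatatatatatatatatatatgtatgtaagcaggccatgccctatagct

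In the 300 bases upstream of the start codon, searched on both strands, GATGAG was present in 8 of the 10 ribosome biogenesis genes of chromosome XIII (80%), against 19.1% of 6001 genes of the genome with a full window. In HAS1 it occurred at 106 to 101 and again at 101 to 96 bases upstream, where the matches overlap by a base, and in UTP14 at 292 to 287 and 93 to 88. AGGGG was present in 9 of the 14 stress genes of the chromosome (64.3%) against 22.2% of all windows, and TSL1 held it 3 times, at 231 to 227, 179 to 175 and 165 to 161. TGCACCC was present in 1.33% of all windows, and in FET3 it lay 251 to 245 bases upstream. ACGCGT, the MCB element of G1/S genes, was in 3.48% of all windows and in 3.3% of the windows of the 455 genes. A match is a description of the letters and not a measured binding site.

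Chromosome XIII was raised as a whole in 5 haploid libraries and 1 diploid library, and to different heights. Each gene's value in a library was divided by the mean of the 3 wild-type libraries of the same ploidy, on the log2(value + 1) scale. The median over the 455 genes was 0.51, 0.93 and 0.92 in N2 replicates 1, 2 and 3, which are folds of 1.43, 1.91 and 1.89. In Ca it was 0.86, 0.89 and −0.01, so replicate 3 of Ca stood with the wild type while replicates 1 and 2 were at folds of 1.82 and 1.85. In N2/Ca it was 0.44, 0.02 and 0.01 against Sc/Sc, so only replicate 1 was raised. In the 9 libraries of Sc[At], Sc[Sp] and Sc[Ca] the median lay between −0.03 and 0.01. Strain means were 0.79 ± 0.24 for N2, 0.58 ± 0.51 for Ca and 0.16 ± 0.25 for N2/Ca (SD, n = 3), and these means hide the differences between replicates. Without its replicate 1 the N2/Ca mean was 0.014, and without its replicate 3 the Ca mean was 0.87. RNA was taken from whole cultures, so an intermediate level in every cell and a higher level in some of the cells cannot be told apart.

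**Figure D1:**
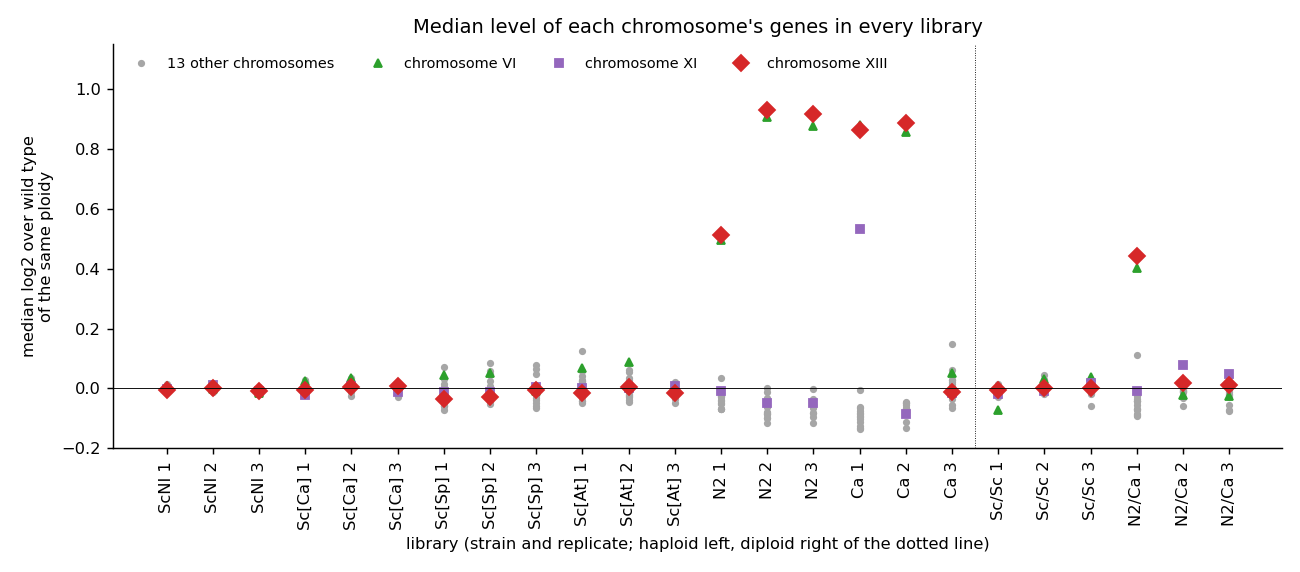
Median log2 over the wild type of the same ploidy for the genes of each chromosome (y axis) in each of the 24 libraries (x axis); red diamonds are chromosome XIII, green triangles VI, purple squares XI and grey points the 13 other chromosomes. Chromosome XIII lies at 0.44 to 0.93 in N2 1 to 3, Ca 1 and 2 and N2/Ca 1, with VI beside it, and near 0 elsewhere.

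The share of all reads that fell on these genes moved in the same libraries. It was 10.6, 13.1 and 13.2% in N2, 12.6, 12.8 and 7.53% in Ca, and 7.33 to 7.82% in the other haploid libraries. In N2/Ca it was 9.49, 7.10 and 7.22% against 6.56 to 6.79% in Sc/Sc. Chromosome VI was raised in the same 6 libraries to nearly the same median, and chromosome XI in Ca replicate 1 alone. The 13 remaining chromosomes had medians between −0.116 and 0.0028 in N2 replicate 2 and between −0.134 and −0.006 in Ca replicate 1.

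The raised level was seen on both arms of chromosome XIII. In N2 the left and right arm had medians of 0.49 and 0.52 in replicate 1, 0.97 and 0.92 in replicate 2, and 0.92 and 0.92 in replicate 3. In Ca they were 0.97 and 0.83, 0.93 and 0.87, and −0.03 and −0.01. In N2/Ca replicate 1 they were 0.47 and 0.42. The centromere lies at chrXIII:268031-268149 in R64. Over 431 windows of 25 neighbouring genes in the haploid table, the lowest and highest window median were 0.38 and 0.64 in N2 replicate 1, 0.71 and 1.34 in replicate 2 and 0.71 and 1.28 in replicate 3. They were 0.63 and 1.12 in Ca replicate 1, 0.59 and 1.19 in replicate 2 and −0.23 and 0.47 in replicate 3. Over 427 windows in the diploid table they were 0.19 and 0.67 in N2/Ca replicate 1, and in replicates 2 and 3 no window left the range from −0.21 to 0.25.

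**Figure D2:**
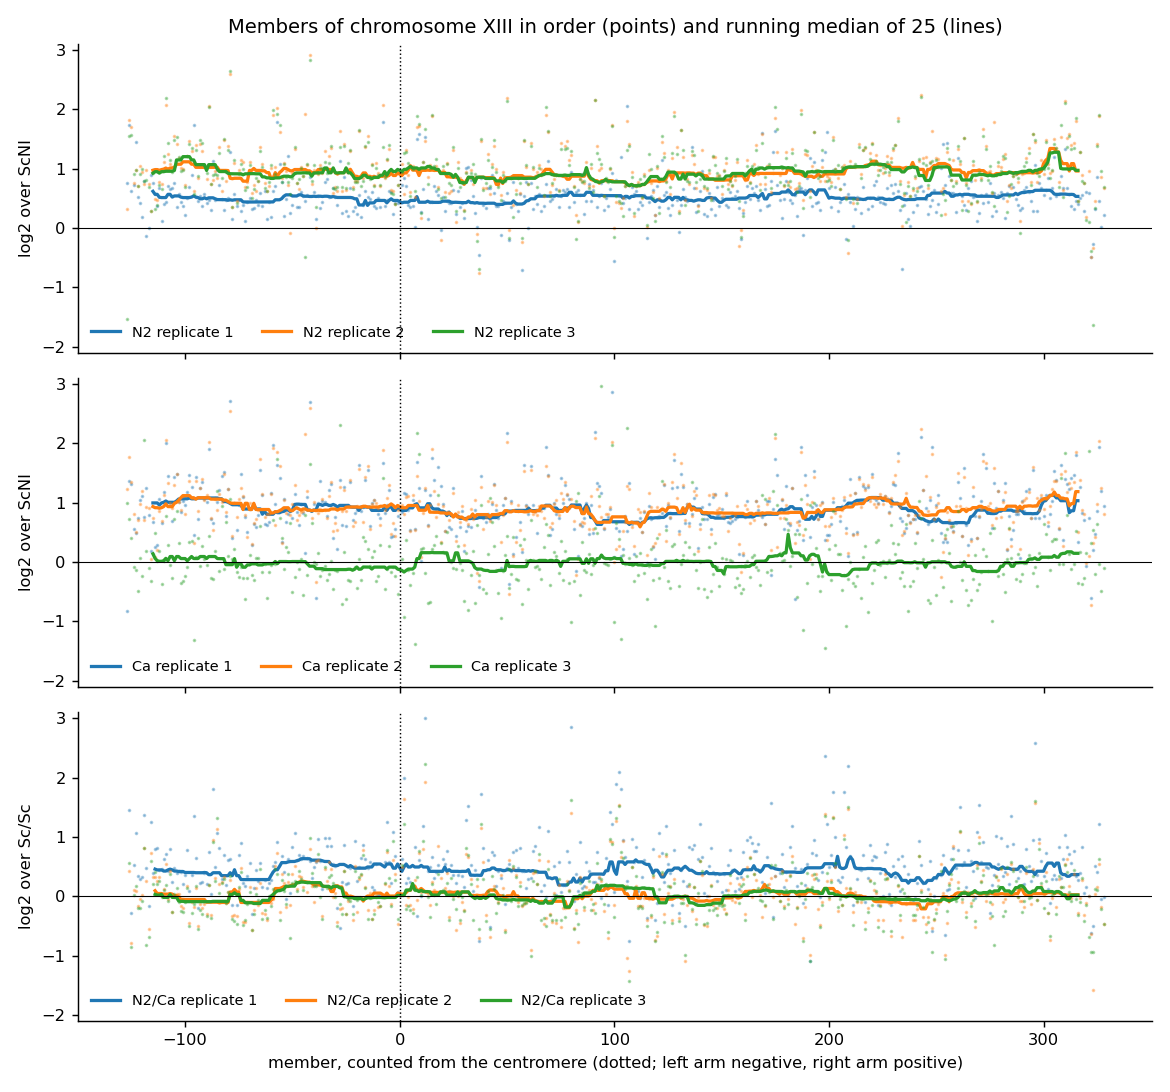
Log2 over the wild-type mean (y axis) for every gene of chromosome XIII in order from the left to the right end (x axis, counted from the centromere, dotted); points are genes, points beyond the axis are drawn at its edge, and lines are running medians of 25 genes. The lines of N2 2, N2 3, Ca 1 and Ca 2 stay above 0.59 along both arms, N2 1 and N2/Ca 1 run lower, and Ca 3, N2/Ca 2 and N2/Ca 3 run around 0.

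In N2 and in Ca replicates 1 and 2 nearly every gene of the chromosome lay above the wild-type mean. The chromosome was chosen for its raised median, from which such counts largely follow, so they are a description. In N2 440, 443 and 442 of the 455 genes lay above the ScNI mean in replicates 1, 2 and 3, and in Ca 442, 446 and 224. In N2/Ca 398, 236 and 231 of 451 lay above the Sc/Sc mean. In N2 the spread of the genes around the chromosome's median lay within the range of other chromosomes. Its SD over genes was 0.34, 0.46 and 0.48 (log2) in N2 replicates 1, 2 and 3, where the 13 other chromosomes ranged from 0.30 to 0.59, 0.46 to 0.92 and 0.44 to 0.62. Split by wild-type level into low, middle and high, the genes had medians of 0.58, 0.49 and 0.46 in N2 replicate 1, 0.93, 0.93 and 0.90 in replicate 2, and 0.97, 0.92 and 0.88 in replicate 3. They had 0.96, 0.87 and 0.78 in Ca replicate 1, 0.94, 0.92 and 0.86 in Ca replicate 2, and 0.44, 0.51 and 0.34 in N2/Ca replicate 1. The genes of high level thus had the lowest median in each of these 6 libraries. In Ca replicate 3, which was not raised as a whole, they were 0.20, −0.04 and −0.18.

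Counted by the test across all genes, 350 of 455 genes differed from ScNI in N2, with 349 higher and 1 lower, where 29.1% of all genes tested did (limma). In Ca 233 differed, 232 higher and 1 lower, against 30.2%, and in N2/Ca 54 against 14.4%, with 45 higher (8.59% of all genes) and 9 lower (5.76%). In N2 16.5% of all genes were higher and 12.6% lower, and in Ca 16% and 14.2%. The chromosome was chosen from these contrasts, so nothing is read from these counts. The Ca count was 403 without Ca replicate 3, and between 110 and 148 without any other single library. The N2 count was 199 without N2 replicate 2 and 204 without replicate 3. The N2/Ca count was 31, 27 and 25 without N2/Ca replicate 1, 2 or 3 and 28 without Sc/Sc replicate 2.

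Which genes follow the chromosome was described in N2, where all 3 libraries were raised. A gene's deviation is its log2 ratio minus the median of chromosome XIII in that library. A gene was said to follow when the deviation was under 0.5 in size in all 3 libraries, to fall short when it was −0.5 or lower in all 3, and to exceed when it was 0.5 or higher in all 3. Of the 455 genes 322 followed (70.8%), 11 fell short (2.42%), 14 exceeded (3.08%) and 108 were mixed. Measured around the median of their own chromosome, 69.4% of 5794 genes followed, 1.55% fell short and 3.37% exceeded, so the shares on chromosome XIII are near those of all genes. On the other 15 chromosomes the share that fell short ranged from 0.316 to 2.45% and the share that exceeded from 1.14 to 6.09%. All 11 genes that fell short lie on the right arm (11 of 328, 0 of 127 on the left), and 4 of the 14 that exceeded lie on the left. Most of the 455 genes are on the right arm, and a difference between the arms was not tested. The values nearest to the bound were −0.54 (YMR230W-A) and −0.504 (RCH1) inside, and −0.459 (HSC82) and −0.425 (ERG12) outside. All these depend on N2 replicate 1: without it 30 genes fell short and 45 exceeded. At the upper bound the values were 0.512 (NCW1) and 0.514 (ALD3) inside, and 0.472 (CLN1) and 0.492 (ADE4) outside.

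Among the genes that fell short, IMP2 was the only 1 counted as lower than the wild type in N2. IMP2 (chrXIII:341142-341675, plus strand) encodes a subunit of the mitochondrial inner membrane peptidase, which trims imported proteins. It was at 355, 452 and 416 normalised counts in ScNI and at 298, 240 and 251 in N2, so that all 3 N2 libraries lay below all 3 ScNI libraries. Its mean deviation was −1.42 ± 0.40 (SD, n = 3). YMR316C-A had a lower deviation on far fewer reads. RCH1 is transcribed away from IMP2, with 419 bases between the genes, and it also fell short, by −0.89 ± 0.34. RCH1 stood at 195, 217 and 186 in ScNI and 200, 185 and 171 in N2, and those ranges overlap.

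FET3 (chrXIII:388822-390732, plus strand) encodes the multicopper oxidase of high-affinity iron uptake, a known target of the iron regulator Aft1. It was at 4035, 4224 and 4424 in ScNI and 2599, 3594 and 3758 in N2. Every N2 library lay below the wild type although the chromosome was raised, and the deviation was −1.15 ± 0.06. The low-affinity iron transporter gene FET4, on the same arm, was at 2808, 2997 and 2926 in ScNI and 3981, 10768 and 10865 in N2. FET4 thus lay at the chromosome's median in replicate 1 and above it in replicates 2 and 3, with log2 ratios of 0.45, 1.89 and 1.90.

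ASC1 (chrXIII:499456-500688, minus strand) encodes the yeast RACK1, a protein of the small ribosomal subunit, and its intron holds the snoRNA gene SNR24. ASC1 was at 32751, 32597 and 32540 in ScNI and 29033, 32918 and 33659 in N2, so its level was that of the wild type in replicates 2 and 3 (deviation −0.82 ± 0.13). The other 10 cytosolic ribosomal protein genes of the chromosome lay at log2 0.62 to 1.05 in those libraries. RPL15B, for a protein of the large subunit, went from 568, 605 and 515 to 920, 1134 and 1167, and had the highest deviation of the list (0.14 ± 0.06).

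DIA1, a gene linked to invasive growth, was at 1512, 2009 and 1743 in ScNI and 1254, 1249 and 1334 in N2 (deviation −1.24 ± 0.22). Its 3 N2 values lay below all ScNI values. YMR316C-A overlaps DIA1 by 174 bases on the opposite strand. It had the lowest deviation of all (−1.53 ± 0.91), from about 18 counts, and without the strand setting of the authors' counting the reads of the pair cannot be told apart. LAF1 was at 2297, 3384 and 2743 in ScNI and 1916, 2814 and 2521 in N2, with overlapping ranges (deviation −1.02 ± 0.08). The autophagy gene ATG16 was at 125, 141 and 153 and then 122, 136 and 126 (−0.91 ± 0.19), again overlapping. DPI35 (−0.63 ± 0.04) and YMR230W-A (−0.88 ± 0.33, about 16 counts) complete the list with YMR050C (−0.92 ± 0.19), which overlaps YMR051C in a Ty retrotransposon whose copies elsewhere may share its reads.

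Of the 14 genes that exceeded the chromosome, DUS1 went furthest. DUS1 (chrXIII:108806-110077, plus strand) encodes a tRNA dihydrouridine synthase, and it was at 251, 228 and 230 in ScNI and 575, 1426 and 1486 in N2. All N2 values lay above the wild type and replicate 1 was the lowest of them, as it was for the chromosome (deviation 1.39 ± 0.54). SCW10, for a glucanase-like cell wall protein, was at 8044, 7300 and 7585 in ScNI and 19154, 33484 and 33059 in N2 (1.07 ± 0.22). The phospholipase B gene PLB1 was at 1941, 1743 and 1848 and then 5531, 6091 and 6231 (0.90 ± 0.15). PLB1 was about equally high in all 3 N2 libraries, though the chromosome was lower in replicate 1. Its neighbour YMR007W had a deviation of 0.90 ± 0.12.

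A neighbouring pair with related roles was also among them. HUG1 and SML1 encode small inhibitors of ribonucleotide reductase, the enzyme that makes DNA precursors, and HUG1 is known as a gene induced by DNA damage. HUG1 was at 82.8, 102 and 86.2 in ScNI and 313, 371 and 345 in N2 (deviation 1.12 ± 0.14). SML1 was at 2080, 1960 and 2056 and then 4291, 6220 and 6755 (0.69 ± 0.12). In both, the N2 values lay above all wild-type values. The other 17 genes of DNA repair and replication on the chromosome held no gene that fell short or exceeded.

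HXT2 (chrXIII:288079-289704, plus strand), for a glucose transporter induced at low glucose, was at 41634, 31004 and 32932 in ScNI and 101819, 97415 and 112318 in N2 (deviation 0.77 ± 0.24). TDA1, for a kinase that acts on the hexokinase Hxk2 at low glucose, was at 3088, 2711 and 2775 and then 5988, 7814 and 7968 (0.55 ± 0.02). The genes SIP18, for a hydrophilin of dry cells, ALD3, for an aldehyde dehydrogenase, and SPG5, needed in stationary phase, had deviations of 1.05 ± 0.12, 0.76 ± 0.30 and 0.66 ± 0.05. YML131W was at 0.91 ± 0.30, the repressor gene MOT3 at 0.68 ± 0.05 and the cell wall gene NCW1 at 0.60 ± 0.07.

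**Figure D3:**
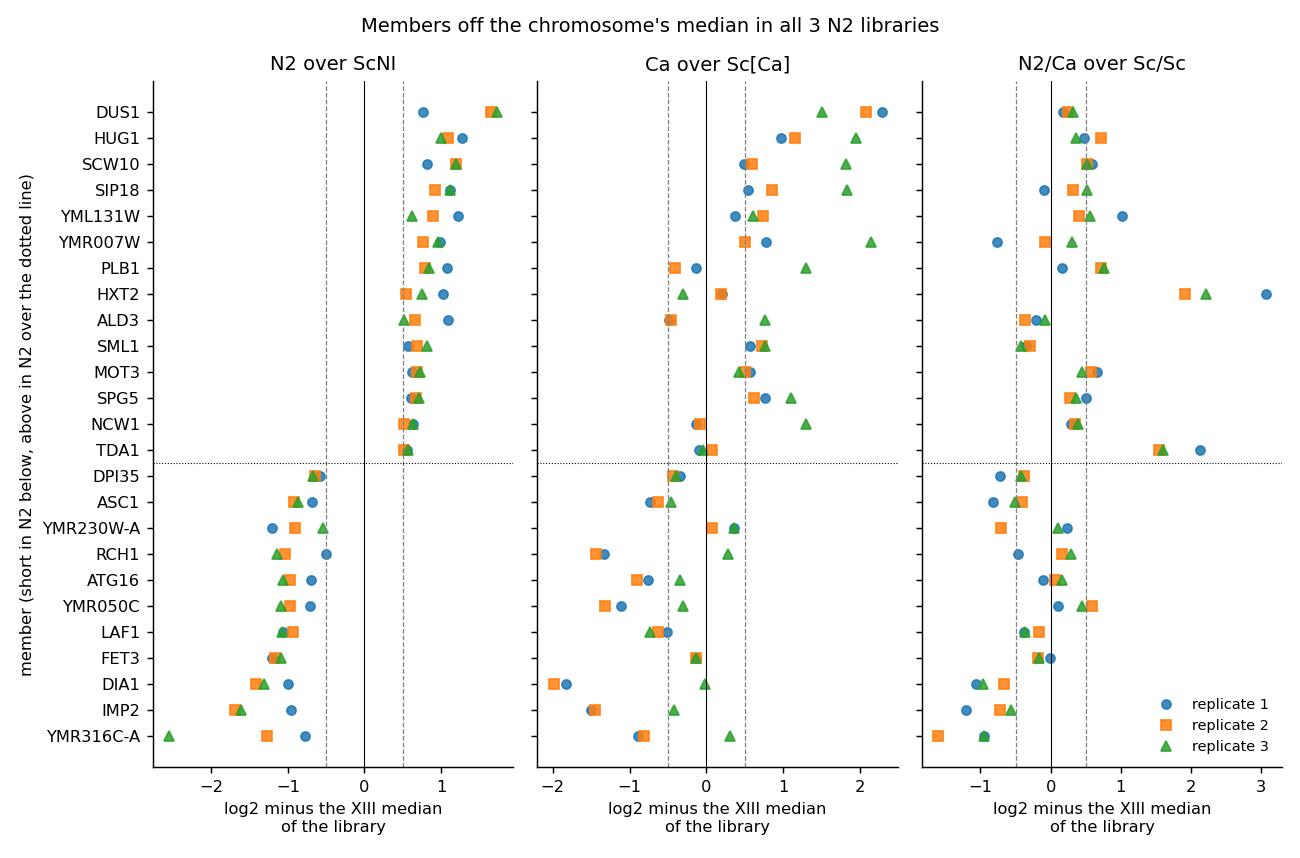
Deviation from the chromosome XIII median of the library (x axis, log2) for the 25 genes that fell short or exceeded in N2 (y axis), with N2 over ScNI, Ca over Sc[Ca] and N2/Ca over Sc/Sc as panels and the 3 replicates as symbols; dashed lines mark −0.5 and 0.5. In Ca over Sc[Ca], DUS1 and HUG1 stay to the right in all replicates, FET3 lies near 0, and IMP2, RCH1 and DIA1 are far to the left in replicates 1 and 2 but not in replicate 3.

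The same genes were read in libraries that the N2 classes did not use, Ca over Sc[Ca] and N2/Ca over Sc/Sc. In Ca replicates 1, 2 and 3 the chromosome's median over Sc[Ca] was 0.87, 0.91 and −0.01. There 8, 8 and 1 of the 11 genes lay at −0.5 or lower. Of all 455 genes 14.7, 15.6 and 9.45% did, and of all genes of the genome 12.8, 13.8 and 9.2%. Of the 14 genes that exceeded in N2, 7, 7 and 11 lay at 0.5 or higher, where 14.7, 12.5 and 16.3% of the 455 and 16.9, 15.1 and 17.9% of all genes did. In N2/Ca 5, 4 and 4 of the 11 were low (9.33, 7.63 and 8.42% of all genes) and 6, 6 and 6 of the 14 were high (12.9, 11.2 and 11.6%).

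Single genes differed in this. IMP2 had deviations of −1.50, −1.44 and −0.43 in Ca over Sc[Ca], so it was low in the raised libraries and less so in replicate 3. DIA1 had −1.82, −1.99 and −0.02. DUS1 had 2.28, 2.08 and 1.51 and HUG1 0.96, 1.16 and 1.95, so both were high with and without a raised chromosome. The level in Sc[Ca] itself adds to the size of these deviations. Its log2 over ScNI was 0.23 for IMP2, 0.36 for DIA1, −0.44 for DUS1 and −0.21 for HUG1, none of them called (limma). FET3 had −0.14, −0.13 and −0.14, so against Sc[Ca] it followed. Against ScNI its log2 in Ca was −0.11, where the median of the 455 genes was 0.59 (limma fit). The level of FET3 in Sc[Ca] was 2812, 2966 and 2782, below every ScNI library. That difference from ScNI did not pass the test (limma adjusted p = 0.95). HXT2 had 0.21, 0.19 and −0.31 in Ca over Sc[Ca].

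In N2, genes of a shared role lay higher on chromosome XIII than elsewhere in every list, in most of them by about the height of the chromosome in that library. This was described for 17 lists, each split into its genes on chromosome XIII and those elsewhere, with chromosomes VI and XI left out. The chromosome was chosen for its raised level in these libraries, and the lists are parts of it. Positive differences near its median follow from that choice and are given as a description. The 10 ribosome biogenesis genes of XIII had medians of 0.49, 1.92 and 1.89 in N2 replicates 1, 2 and 3, and the 133 elsewhere had −0.02, 0.91 and 0.93. The differences of 0.51, 1.02 and 0.96 are close to the chromosome's medians of 0.51, 0.93 and 0.92. In Ca replicates 1, 2 and 3 the genes of XIII had 1.79, 1.86 and 0.30, those elsewhere 0.87, 0.87 and 0.31, and the differences were 0.92, 0.98 and −0.01.

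UTP14, for a protein of the complex that processes small-subunit rRNA, shows this in single libraries. It was at 1886, 1796 and 1976 in ScNI, 2606, 7866 and 7748 in N2 and 7087, 7703 and 2549 in Ca. HAS1, for an RNA helicase of ribosome assembly, was at 3537, 3391 and 3779 in ScNI, 4348, 10732 and 10733 in N2 and 10481, 10806 and 3158 in Ca. Both were highest in the 4 libraries where the chromosome's median was near 0.9. RRN11, for a subunit of the RNA polymerase I core factor, had the highest deviation of the list, with log2 ratios of 0.85, 2.91 and 2.83 in N2. The proline isomerase gene FPR3 had the lowest, at 0.39, 1.11 and 0.99. Only 1 of the 10 genes was in the class that followed, and the other 9 were mixed, since N2 replicate 1 differed from replicates 2 and 3.

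Cytosolic ribosomal protein genes moved the other way elsewhere in the genome. The 119 genes outside VI, XI and XIII had medians of −0.26, −0.23 and −0.19 in N2. The 11 on XIII had 0.24, 0.66 and 0.70, which gives differences of 0.49, 0.89 and 0.88. In Ca replicate 3, where the chromosome was not raised, the genes of XIII had −0.61 and those elsewhere −0.47. The 8 mitochondrial ribosomal protein genes of XIII differed from the 60 elsewhere by 0.57, 0.92 and 0.97 in N2, and all 8 followed. Among them MRPL24 had the lowest deviation (−0.06 ± 0.03) and YML6 the highest (0.43 ± 0.08).

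Stress genes driven by Msn2 and Msn4 showed the opposite order of libraries. The 14 on XIII had medians of 1.35, 0.85 and 0.96 in N2 and the 44 elsewhere 0.46, −0.12 and −0.16. TSL1, for a subunit of the trehalose synthase complex, was at 10169, 9936 and 8602 in ScNI and at 32009, 14743 and 14262 in N2. It was thus highest in the N2 library with the smallest rise of the chromosome. In Ca it was at 13115, 12021 and 3861, so the library without the rise lay below the wild type. PGM2, for the main phosphoglucomutase and the highest of the glycolysis list, was also highest in N2 replicate 1, going from 6662, 7205 and 5718 to 14986, 8274 and 8732. TPS3, another subunit of the trehalose complex, had the lowest deviation of the stress list (−0.32 ± 0.42).

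The other lists differed more among themselves. In N2 the genes on XIII stood above those elsewhere by 0.61, 1.20 and 1.09 for ergosterol synthesis (8 and 20 genes), 0.55, 1.09 and 1.17 for the nuclear pore and transport (7 and 42) and 0.51, 0.94 and 1.00 for DNA repair and replication (19 and 115). For actin, endocytosis and polarity (7 and 117 genes) the differences were 0.41, 0.91 and 0.98, for chaperones (7 and 58) 0.54, 0.87 and 0.94, and for RNA polymerase and general transcription (11 and 87) 0.52, 1.01 and 0.93. The respiratory chain and TCA cycle (9 and 77) gave 0.55, 0.98 and 1.03, the proteasome (2 and 36) 0.50, 0.99 and 0.98, and metal and phosphate transport (4 and 62) 0.45, 1.02 and 1.04. Glycolysis (3 and 30) gave 0.79, 0.94 and 0.98, glucose-repressed genes (6 and 42) 0.68, 0.74 and 0.74, amino acid synthesis (3 and 93) 0.82, 1.42 and 1.40, and pheromone response (4 and 41) 0.31, 0.90 and 0.41. For pheromone response the difference was −0.23, 0.24 and −0.09 in ScNI replicates 1, 2 and 3 themselves. Replicate 2 is the MATalpha library, so mating type and the chromosome cannot be told apart in the 0.90. In all 17 lists the difference was smallest in N2 replicate 1, the N2 library in which the chromosome was least raised. This order too follows from the level of the chromosome.

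Within these lists single genes lay away from their chromosome. ERG12, for mevalonate kinase, was lowest among the ergosterol genes (deviation −0.48 ± 0.05) and ERG5 highest (0.12 ± 0.07). HSC82, the constitutive Hsp90 gene, had −0.56 ± 0.09, with 49285, 47127 and 51011 in ScNI and 45090, 68153 and 62175 in N2, and ERO1, for an oxidase of protein folding in the ER, had 0.51 ± 0.35. The phosphofructokinase gene PFK2 had −0.51 ± 0.16 and YKU70, for a DNA end-binding protein, −0.67 ± 0.42. Reads of HSC82 may be shared with its near-identical paralogue HSP82 on another chromosome. The remaining extremes of the lists lay closer, such as RNA1 at −0.26 ± 0.02, NDE1 at −0.35 ± 0.14, GAL80 at −0.16 ± 0.01, BCH1 at −0.23 ± 0.10 and POB3 at −0.22 ± 0.04 on the low side. On the high side were NDC1 at 0.30 ± 0.25, TAF11 at 0.33 ± 0.20, ARG7 at 0.41 ± 0.14, ZDS2 at 0.48 ± 0.20 and COX7 at 0.51 ± 0.14. FUS2 and KAR5 bounded the pheromone list at −0.22 ± 0.52 and −0.11 ± 0.12.

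**Figure D4:**
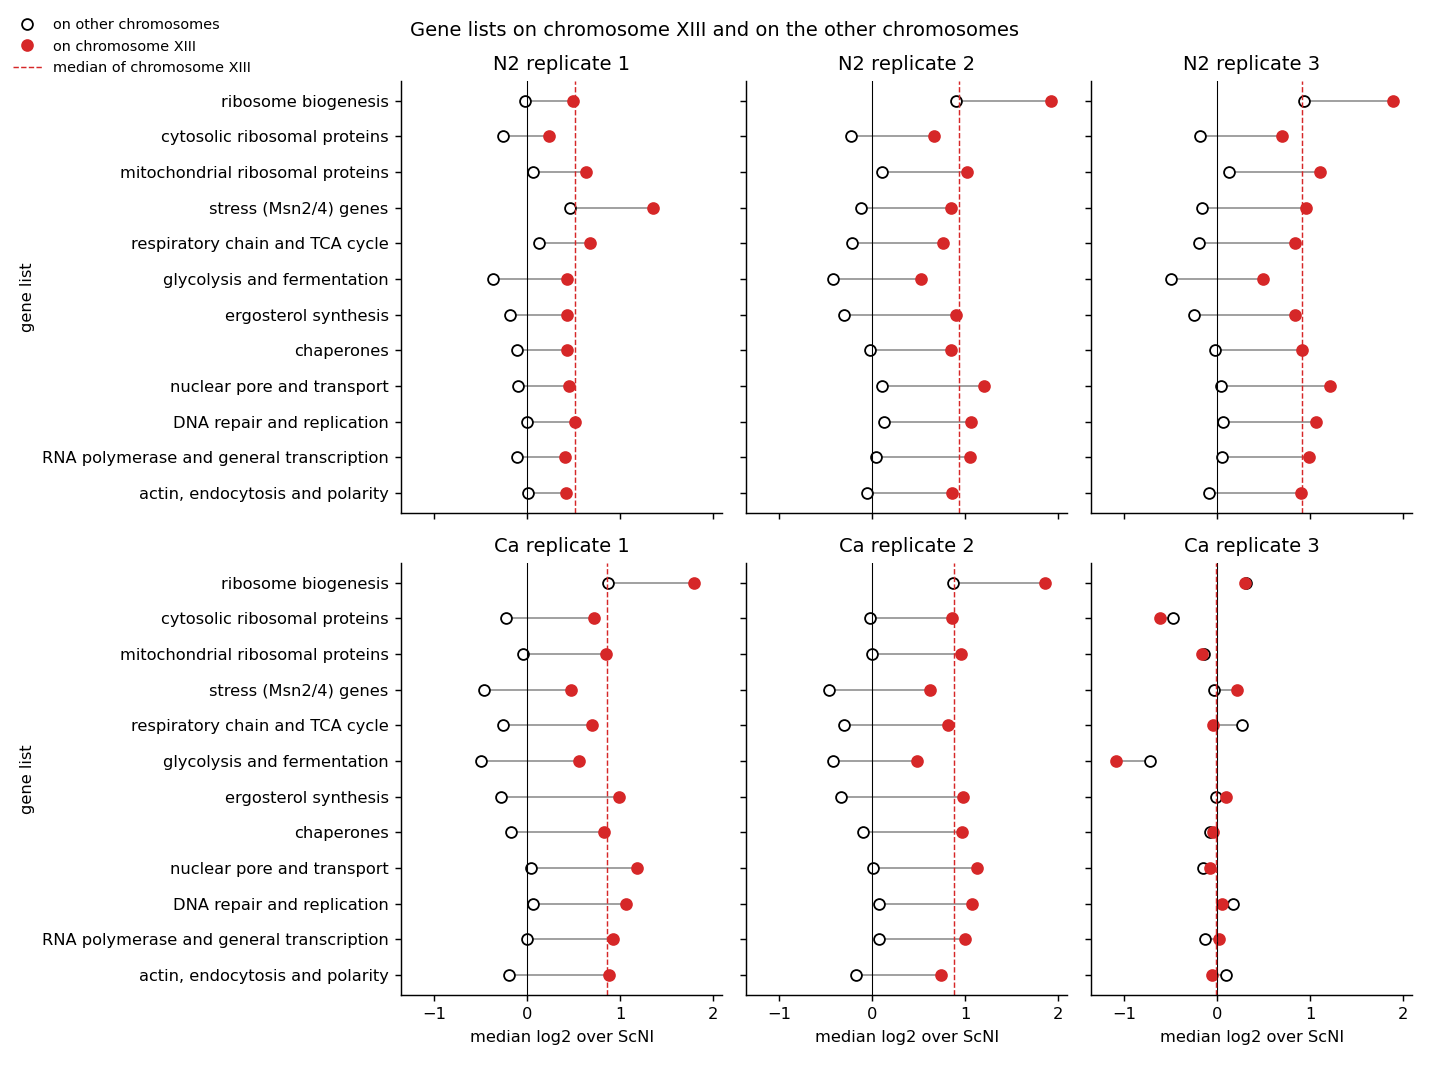
Median log2 over ScNI (x axis) of 12 gene lists (y axis) in each N2 and Ca library, split into genes on chromosome XIII (red) and on other chromosomes without VI and XI (open). The dashed red line is the median of chromosome XIII. Ribosome biogenesis runs from 0.91 elsewhere to 1.92 on XIII in N2 replicate 2, while in Ca replicate 3 both lie near 0.3.

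The strains without a raised chromosome allow tests that the choice of the chromosome did not use. Sc[At], Sc[Sp] and Sc[Ca] were each compared with the same 3 ScNI libraries, so the comparisons share their controls. In Sc[Ca] 0 of 455 genes passed (limma adjusted p under 0.05; edgeR 0, DESeq2 0), where 0.0172% of all genes did, and 12 had an unadjusted p under 0.05. In a fit of only the 6 libraries of the pair 79 passed. The share over all genes is not given for that fit, so nothing about the chromosome is read from the 79. In Sc[Sp] 57 genes passed, where 21% of all genes did (limma): 54 were higher, against 10.1% of all genes, and 3 lower, against 10.9%. In Sc[At] 41 passed, where 15.3% did: 38 higher, against 8.44%, and 3 lower, against 6.82%. The fit pools the spread of all 18 haploid libraries, and the median residual SD of the chromosome's genes was 0.286 there, against 0.153 for other genes. An alternative chosen with the data in view left out the 6 N2 and Ca libraries, and the SD was then 0.118 against 0.121. In that fit 0 genes passed in Sc[Ca] (0.0689% of all genes), and 184 passed in Sc[Sp] (91 higher and 93 lower, where 19.7% and 21.8% of all genes were, 41.5% together) and 138 in Sc[At] (74 higher and 64 lower, where 16.4% and 14.9% were, 31.2% together). The calls thus split nearly evenly there. In the fit of all 18 libraries the Sc[Sp] count was 30 without Sc[Sp] replicate 2, and 36 and 33 without ScNI replicates 2 and 3. The Sc[At] count was 21 and 23 without Sc[At] replicates 1 and 2, and 21 and 23 without ScNI replicates 2 and 3.

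In Sc[Sp] the largest rise was that of GCV2, for a subunit of the glycine cleavage complex. GCV2 was at 583, 611 and 534 in ScNI and 2145, 2771 and 1906 in Sc[Sp], with no overlap (log2 1.96, SE 0.21, limma adjusted p = 7.6e-05). It also rose in Sc[At], to 1159, 1408 and 1038 (1.05, SE 0.21, 0.0064, limma). YMR206W, which no source used here annotates with a role, rose from 304, 324 and 263 to 1103, 1196 and 851 in Sc[Sp] (1.81, SE 0.32, 0.0019). RPM2, for the protein of mitochondrial RNase P, rose from 2306, 1891 and 1927 to 4825, 4202 and 4256 (1.12, SE 0.19, 0.0015). The GATA-factor gene GAT2 rose by log2 1.18 (SE 0.18, 0.00082) and YML131W by 1.28 (SE 0.23, 0.0028).

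In Sc[At] the largest rise was that of SNZ1, for an enzyme of vitamin B6 synthesis. SNZ1 was at 280, 286 and 266 in ScNI and 926, 1155 and 769 in Sc[At], with no overlap (log2 1.75, SE 0.37, limma adjusted p = 0.0077). In Sc[Sp] it was at 678, 743 and 710 (1.35, SE 0.37, 0.021). PLB1 rose to 6134, 5282 and 4160 in Sc[At] (1.48, SE 0.16, 0.00012, limma) and to 4018, 3964 and 4046 in Sc[Sp] (1.12, SE 0.16, 0.00052). HUG1 rose to 267, 248 and 200 in Sc[At] (1.39, SE 0.16, 0.00024). The homeobox repressor gene YOX1 rose from 132, 94.6 and 117 to 338, 361 and 261 (1.48, SE 0.25, 0.0035). SRT1, for a prenyltransferase of dolichol synthesis, rose from 12.3, 9.87 and 15.2 to 48.3, 28.6 and 43.9 (1.60, SE 0.32, 0.0057), on few reads. YMR007W rose by log2 1.37 (SE 0.21, 0.0016) and SIP18 by 1.67 (SE 0.34, 0.0068), from 16.4, 21.4 and 16.2 to 30.5, 104 and 64. ALD3 rose by 1.28 (SE 0.38, 0.037), but its values of 476, 1293 and 247 against 230, 229 and 199 differ widely, and without Sc[At] replicate 2 its log2 was 0.645 (limma adjusted p = 0.085).

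In the fit of all 18 libraries 3 genes were lower in each of these strains, against 93 in Sc[Sp] and 64 in Sc[At] without the N2 and Ca libraries. FET3 fell from 4035, 4224 and 4424 to 1623, 1631 and 1561 in Sc[Sp] (log2 −1.40, SE 0.25, limma adjusted p = 0.0022) and to 2364, 1360 and 2800 in Sc[At] (−1.02, SE 0.25, 0.015). In both strains all 3 values lay below the wild type. LAF1 fell to 1313, 1316 and 1289 in Sc[Sp] (−1.09, SE 0.24, 0.0074, limma) and to 1519, 1468 and 1900 in Sc[At] (−0.78, SE 0.24, 0.039). RTP1, for a factor of RNA polymerase II import, fell from 472, 461 and 541 to 289, 262 and 259 in Sc[Sp] (−0.86, SE 0.28, 0.044). ATG16 fell from 125, 141 and 153 to 97.6, 120 and 71.2 in Sc[At] (−0.56, SE 0.18, 0.046). With the replicate number as a block RTP1 had limma adjusted p = 0.059 and ATG16 0.058. RTP1, SIP18 and SNZ1 in Sc[Sp] lost the call whichever library of the pair was left out (limma adjusted p 0.052 to 0.14). In Sc[At] ATG16 lost it without Sc[At] replicate 1 or 3 or any ScNI library (0.066 to 0.15), ALD3 without any library other than Sc[At] replicate 3 (0.085 to 0.11), LAF1 without Sc[At] replicate 1 or 2 or ScNI replicate 2 or 3 (0.096 to 0.17), and FET3 without Sc[At] replicate 2 or ScNI replicate 2 or 3 (0.053 to 0.055).

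**Figure D5:**
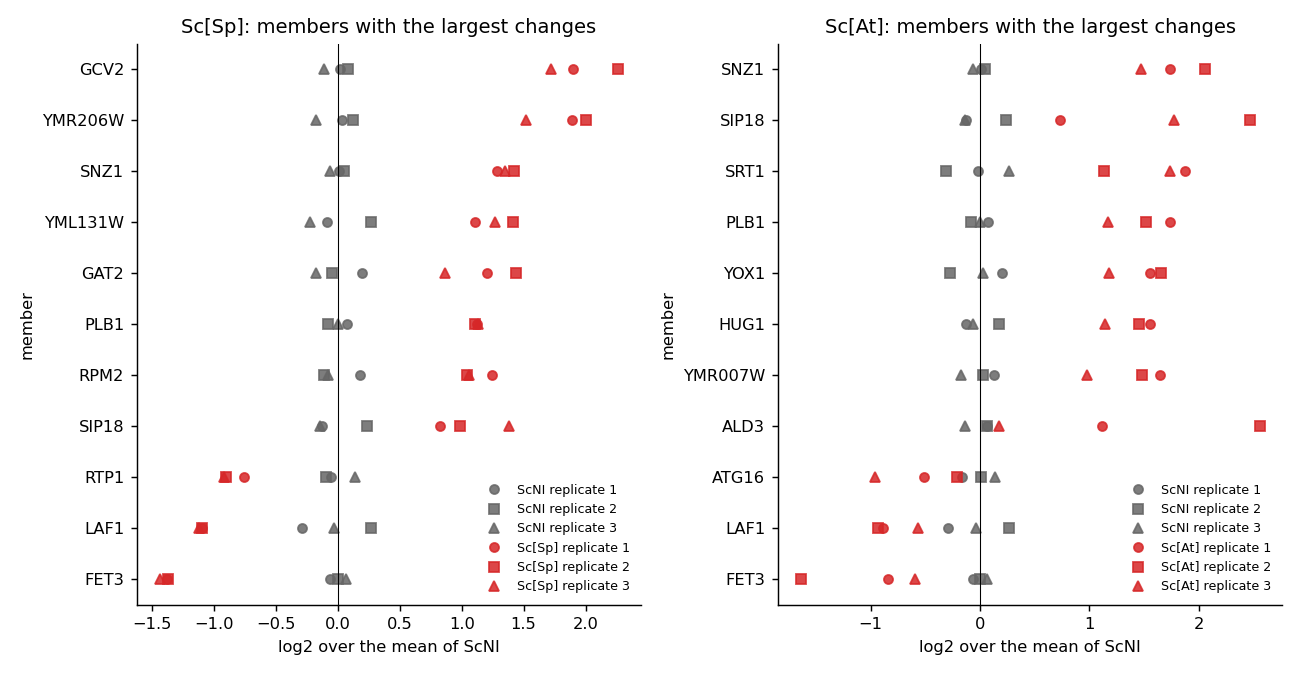
Log2 over the ScNI mean (x axis) for the genes of chromosome XIII with the largest changes in Sc[Sp] (left) and Sc[At] (right) (y axis); grey symbols are the 3 ScNI libraries and red symbols the 3 libraries of the strain. GCV2 leads in Sc[Sp] and SNZ1 in Sc[At], and FET3 lies lowest in Sc[Sp].

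By pathway, the stress list of 14 genes had 6 higher in Sc[Sp] (median log2 0.82) and 5 higher in Sc[At] (0.45), and none lower, where 10.1% and 8.44% of all genes were higher. The list's median over ScNI was 0.82, 0.95 and 0.71 in the Sc[Sp] replicates and 0.63, 1.02 and −0.27 in those of Sc[At], so Sc[At] replicate 3 went the other way. The 44 stress genes elsewhere were at 0.64, 0.78 and 0.52 in Sc[Sp] and 0.53, 0.88 and −0.44 in Sc[At]. Of the 6 glucose-repressed genes 4 were higher in Sc[Sp] and 2 in Sc[At]. Of the 9 respiratory chain and TCA cycle genes 3 were higher in Sc[Sp], among them COX7 (log2 0.75, SE 0.15, limma adjusted p = 0.0041). The glucose-repressed list had medians of 0.92, 0.86 and 0.72 on XIII in Sc[Sp], and 1.07, 1.13 and 0.82 elsewhere. In Sc[At] it had 0.38, 0.77 and 0.10 on XIII, and 0.51, 0.64 and 0.22 elsewhere. The respiratory list had 0.08, 0.28 and 0.14 on XIII in Sc[Sp], and 0.31, 0.40 and 0.36 elsewhere. The 10 ribosome biogenesis genes had a median of −0.80 in Sc[Sp] with 0 called. All 10 were lower in the fit without the N2 and Ca libraries, where 21.8% of all genes were. The 133 elsewhere were at −0.75, −0.84 and −0.72 in the Sc[Sp] replicates. The 11 cytosolic ribosomal protein genes had a median of −0.40 in Sc[At] with 0 called. In that same fit without the N2 and Ca libraries 10 were lower and 1 higher, where 14.9% and 16.4% of all genes were. The 119 elsewhere were at −0.40, −0.48 and −0.17 in the Sc[At] replicates. Over all 455 genes the median was −0.02 in Sc[Sp] and −0.01 in Sc[At].

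Genes that left the chromosome's median in N2 can be set beside these strains, with the caution that all ratios use the same ScNI libraries. FET3 had a log2 of −0.70, −0.23 and −0.17 in the 3 N2 libraries, −1.38, −1.37 and −1.44 in Sc[Sp] and −0.84, −1.64 and −0.59 in Sc[At]. PLB1 had 1.58, 1.72 and 1.76 in N2, 1.12, 1.10 and 1.13 in Sc[Sp] and 1.73, 1.52 and 1.17 in Sc[At]. HUG1 had 1.78, 2.03 and 1.92 in N2, 0.56, 1.19 and 0.77 in Sc[Sp] and 1.55, 1.45 and 1.14 in Sc[At]. IMP2 had −0.45, −0.76 and −0.70 in N2, −0.29, −0.19 and −0.15 in Sc[Sp] and −0.36, −0.06 and −0.59 in Sc[At].

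In the diploid strain N2/Ca the genes farthest from the chromosome's median of 0.44 in replicate 1 are given as a description. HXT2 was at 57371, 19127 and 23616 in N2/Ca replicates 1, 2 and 3 and at 4796, 6680 and 3615 in Sc/Sc. It was thus above Sc/Sc in every replicate, also where the chromosome was not raised. ISF1 was at 2518, 922 and 1080 against 369, 338 and 340, and TDA1 at 3743, 1854 and 1911 against 607, 761 and 512. ICY1 and YMR206W were the other 2 of the 5 highest, with log2 ratios of 2.36, 1.39 and 1.35 and of 2.20, 1.47 and 1.50. The lowest was GCV2, at 727, 776 and 726 against 1814, 1530 and 1305, below Sc/Sc in all replicates. ILV2, for the first enzyme of branched amino acid synthesis, was at 8870, 6263 and 5545 against 15220, 17719 and 11856. IMP2 was at 292, 305 and 337 against 450, 448 and 590, DIA1 at 2451, 2416 and 1958 against 3870, 3148 and 4305, and the glutathione transferase gene GTO3 at 53.6, 42.5 and 40.2 against 79, 94.8 and 81.1. Each of these lay below the diploid wild type in all 3 replicates.

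The split by pathway was wider in N2/Ca. In replicate 1, where the chromosome's median was 0.44, genes on XIII stood above those elsewhere in 16 of the 17 lists, by 0.09 to 0.94. The chromosome was also chosen for its level in this library, so these differences are a description. The difference was 0.43 for cytosolic ribosomal proteins, 0.35 for mitochondrial ribosomal proteins, 0.59 for ribosome biogenesis, 0.38 for stress genes and 0.50 for DNA repair and replication. It was highest for glycolysis at 0.94, the respiratory chain and TCA cycle at 0.70 and metal and phosphate transport at 0.65. It was lowest among the 16 for RNA polymerase and general transcription at 0.21, glucose-repressed genes at 0.11 and pheromone response at 0.09. In replicates 2 and 3, where the chromosome was not raised, the 16 differences ranged from −0.20 for RNA polymerase and general transcription to 0.40 for glycolysis. Amino acid synthesis went the other way in every replicate, at −0.46, −0.63 and −0.69. Its 3 genes on XIII are ARG7, GCV2 and ILV2, so the median of the list is the value of a single gene. GCV2 stands in the list although its complex cleaves glycine. In N2/Ca the log2 of ARG7, GCV2 and ILV2 was −0.53, −1.05 and −1.13 (limma).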

How the data were processed

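Poly(A) RNA of 24 libraries (18 haploid, 6 diploid) was sequenced by a stranded protocol, per the labels' protocols. The submitters' processing notes name build R64, the aligner HISAT2 (2.2.1) and DESeq2 (1.28.0), after Trimmomatic (0.39). Not given in the sources used here are the counting tool, the annotation and its strand option; genes that overlap or share reads with a paralogue are therefore uncertain. The values deposited by the authors are a signal, counts divided by DESeq2 size factors, in 2 tables normalised separately, so levels are not compared across ploidy. In every library 100% of values were whole multiples of a single read within 0.001 reads, and depth is the sum of those reads.

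Genes with a mean of at least 10 were tested with limma 3.58.1 (R 4.3.3, mean-variance trend) on log2(value + 1), a scale that understates the fold of low genes. All 18 haploid libraries entered a single fit and the 6 diploid libraries another, with Benjamini-Hochberg adjusted p under 0.05 over all genes. "Rose" and "fell" refer to this test. On the recovered reads edgeR 4.0.16 called 0, 57, 41, 367, 296 and 63 of the genes in Sc[Ca], Sc[Sp], Sc[At], N2, Ca and N2/Ca, and DESeq2 1.42.0 was also run. Shares over all genes are not given for edgeR, so nothing about the chromosome is read from these counts. On simulated data 98% of 100 genes changed by log2 1 were recovered in the Sc[Sp] comparison over 5809 genes. Those data gave every gene the same dispersion and raised no chromosome. In the real fit the median residual SD was 0.286 for the chromosome's genes and 0.153 for other genes. The 98% is therefore not a rate of recovery for the genes of chromosome XIII. Medians and deviations were computed with numpy 2.4.6 and pandas 2.3.3.

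Same-numbered libraries deviated together in Sc[Ca], Sc[Sp], Sc[At] and N2 against ScNI (lowest correlations 0.50, 0.39, 0.40 and 0.31), and not throughout in Ca (0.057) or N2/Ca (−0.072). The number was used as a block in an alternative only. The genes, the lists and the tests were chosen with earlier results of these data known. Named genes are the 12 lowest and 12 highest that fell short or exceeded in N2, the 8 largest changes in each direction in Sc[Sp] and Sc[At], the lowest and highest of each list with at least 3 genes on the chromosome, and the 5 lowest and 5 highest in N2/Ca replicate 1. NCW1, TDA1, UTP14, HAS1, TSL1, FET4's comparison with FET3 and values of these genes in other strains were added after their values were seen.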

Additional observations from a re-analysis of the deposited data

Results flagged for a closer look

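The noncoding RNA genes of chromosome XIII, which none of the comparisons used, also stood above the wild type in N2 and Ca. Over 13 rows, nearly all snoRNA genes, the median log2 over ScNI was 0.52, 0.71 and 0.982 in N2 replicates 1, 2 and 3. It was 1.424, 1.077 and 0.687 in Ca replicates 1, 2 and 3, where the highest ScNI library was at 0.041. Ca replicate 3, at 0.687, is a library in which the chromosome as a whole was not raised. Other such libraries also lay above ScNI, with 0.408 in Sc[Sp] replicate 1 and 0.302 in Sc[At] replicate 1. The 54 noncoding rows of other chromosomes had 0.244, 0.231 and 0.147 in N2 and 0.768, 0.455 and −0.174 in Ca. These RNAs carry no poly(A) tail as a rule and have few reads here, and what share of their rise is that of the chromosome was not tested. No group held enough libraries for a search for single outlying samples.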

How the results depend on the processing

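The counts in this paragraph show how far a count depends on the setting, and nothing about the chromosome is read from them. Shares over all genes are given above for the fit without the 6 N2 and Ca libraries, and are not given for the other settings. The following counts of genes moved by more than 1.5 times. With only the 6 libraries of a pair 79 genes passed in Sc[Ca], 212 in Sc[Sp], 86 in Sc[At] and 71 in Ca. Without the 6 N2 and Ca libraries 184 passed in Sc[Sp] and 138 in Sc[At]. With DESeq2 94 passed in N2/Ca. A bound of 0.3 in place of 0.5 gave 23 genes that fell short and 31 that exceeded, and a bound of 0.8 gave 4 and 3. Leaving out each replicate in turn gave 0 to 0 genes in Sc[Ca], 30 to 41 in Sc[Sp], 21 to 54 in Sc[At], 199 to 372 in N2, 110 to 403 in Ca and 25 to 69 in N2/Ca. It gave 11 to 30 that fell short and 13 to 45 that exceeded, with 30 and 45 reached without N2 replicate 1. The chromosome's mean of medians ranged from 0.71 to 0.92 in N2, 0.42 to 0.87 in Ca and 0.014 to 0.23 in N2/Ca. The cause was not tested. With the replicate block 0, 59, 39, 352, 226 and 81 genes passed in Sc[Ca], Sc[Sp], Sc[At], N2, Ca and N2/Ca, and among named genes only RTP1 in Sc[Sp] and ATG16 in Sc[At] lost their call.

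The mean deviation of MRPL24 in N2 changed sign, to 0.00537 with the median of the wild type and 0.0135 without ScNI replicate 2, from −0.059. Over the replicates left out it ranged from −0.089 to 0.0135. Under a pseudocount of 5, no filter on low values, DESeq2, and the fit without N2 and Ca libraries, all 22 named results in Sc[Sp] and Sc[At] kept their direction and call. ATG16 lost it with edgeR, RTP1 and ATG16 with size factors from outside VI, XI and XIII, and ALD3 and ATG16 with only the 6 libraries of the pair. With a mean of at least 100, 17 kept it and ATG16 lost it. The lowest genes rest on under 20 reads and their ratios are imprecise.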

Other observations

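The α-tubulin genes are on the same chromosome and were left out of the 455. TUB1 had log2 ratios of 0.27, 0.90 and 0.95 in N2 replicates 1, 2 and 3 with 0.95, 0.95 and −0.24 in those of Ca. In N2/Ca it had 0.12, −0.26 and −0.40. TUB3, the minor α-tubulin gene of the left arm, had 0.23, 0.83 and 0.76 in N2. Its ratios were 0.70, 0.73 and −0.00 for Ca, and for N2/Ca 0.06, −0.31 and −0.37. Both lay above the wild-type mean in the 6 libraries where the chromosome's median was raised, and in N2/Ca both lay under the chromosome's median in all 3 replicates.

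SNR24, the snoRNA gene inside the intron of ASC1, had log2 ratios of 0.52, 0.74 and 0.40 in N2 (a mean of 14.9 normalised counts in ScNI), where ASC1 itself had −0.17, 0.01 and 0.04.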
